A study of Homo sapiens with 22 samples.

Results

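RNA recovered with PSF (also called SFPQ) was compared with input RNA in LNCaP cells, an established androgen-responsive prostate cancer line. The comparison uses 4 of the 22 samples of the series, chosen by their labels: the PSF-RIP and the input library of LNCaP after DHT and after vehicle. Every gene was represented by 1 RefSeq transcript, the one with the highest mean count, which gave 20239 genes, of which 13776 passed the filter on low counts. The 4 PSF-RIP and input libraries each of 22Rv1 and of the line labelled LTAD served to show where LNCaP differs.

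RIP-seq sequences the RNA that is pulled down with an antibody to a protein from a cell lysate, and the input is RNA of the lysate itself. The PSF-RIP libraries and the inputs came from LNCaP cells given 10 nM dihydrotestosterone (DHT, the potent androgen) or the vehicle ethanol for 24 h. All these cells, and those of 22Rv1 and LTAD, had first spent 3 days in phenol-red-free medium with 2.5% steroid-depleted serum. LNCaP and 22Rv1 were otherwise grown with 10% FBS and LTAD, a name the labels do not spell out, with 10% charcoal/dextran-treated serum. With 1 library for every combination, the DHT pair and the vehicle pair are the 2 replicates of LNCaP. No label says that they came from separate cultures, and DHT itself differs between them, so p-values measure only the spread between these libraries. No immunoglobulin control was analysed here, and enrichment is always relative to input.

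PSF is a nuclear protein of the DBHS family, together with NONO and PSPC1. It takes part in splicing and 3' end formation, and with NONO and the long noncoding RNA NEAT1 it builds paraspeckles, bodies in the nucleus that retain some RNAs. In prostate cancer cells it is known as an RNA-binding partner of noncoding RNAs that acts on splicing factor genes.

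The PSF-RIP libraries held 4641602 (DHT) and 5568110 (vehicle) mapped reads, and the inputs held 1743886 (DHT) and 1831432 (vehicle), so the input counts set the precision. Markers fitted the label of the line: all 11 luminal prostate markers had reads in both inputs, with a summed level of 843 to 2190 RPKM (reads scaled by exonic length and by the reads on genes). Of the markers of other cells, TP63 (basal), PTPRC (leukocyte), PECAM1 (endothelial) and DCN (stromal) were among those at 0 reads in all 4 libraries. Others had reads in the DHT and vehicle inputs, such as COL1A1 (stromal, 11 and 19) and VWF (endothelial, 3 and 2). KRT5, INSM1, COL1A2 and CD3E had no values. Summed neuroendocrine markers (mainly ENO2) were at 25.9 and 31.4 RPKM in PSF-RIP, against 17.0 and 17.3 in the inputs, and their part in the results was not tested. Stromal markers (mainly VIM) were at 22.3 and 29.2 in PSF-RIP, against 29.9 and 47.7 in the inputs, and leukocyte markers (mainly CD68) at 4.59 and 11.8, against 5.32 and 22.6. Basal and endothelial markers stayed under 1 RPKM in every library.

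The make-up of the libraries changed first of all in the RNAs that PSF-RIP left behind. Mitochondrial genes took 0.29% (DHT) and 0.35% (vehicle) of mapped reads in PSF-RIP, against 8.65% and 9.93% in the inputs. Structured small RNAs took 0.0952% and 0.126% in PSF-RIP, against 3.88% and 4.91% in the inputs. Most of that input share came from 2 genes, RPPH1 (47322 reads with DHT and 67115 with vehicle) and RMRP (18999 and 21270). Intergenic reads made up 6.04% and 6.49% in PSF-RIP, against 12.2% and 13.3% in the inputs. MALAT1, a nuclear long noncoding RNA of nuclear speckles, moved the other way: 7.45% and 7.07% of mapped PSF-RIP reads came from it, against 1.60% and 1.59% of input reads. No test was run on these shares, and in each of the 4 classes both PSF-RIP values lie apart from both inputs.

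Across the genes tested, 5769 differed between PSF-RIP and input in LNCaP at an adjusted p under 0.05, which is 41.9% of them. Of these, 2920 (21.2%) were higher in PSF-RIP and 2849 (20.7%) lower. Both pairs had the sign of the call for 2914 of the higher and 2834 of the lower genes. The test was edgeR's quasi-likelihood test in a model with a term for each line and treatment pair and an assay term for each line, with Benjamini-Hochberg adjustment over all genes. For 11950 of the 13776 genes the spread was taken wholly from the trend over all genes, so single p-values rest on that shared estimate. The same model without the pairing made 2886 calls. Both samples of a pair are bulk RNA, so a change of recovery in some cells and one in all cells cannot be told apart.

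**Figure D1:**
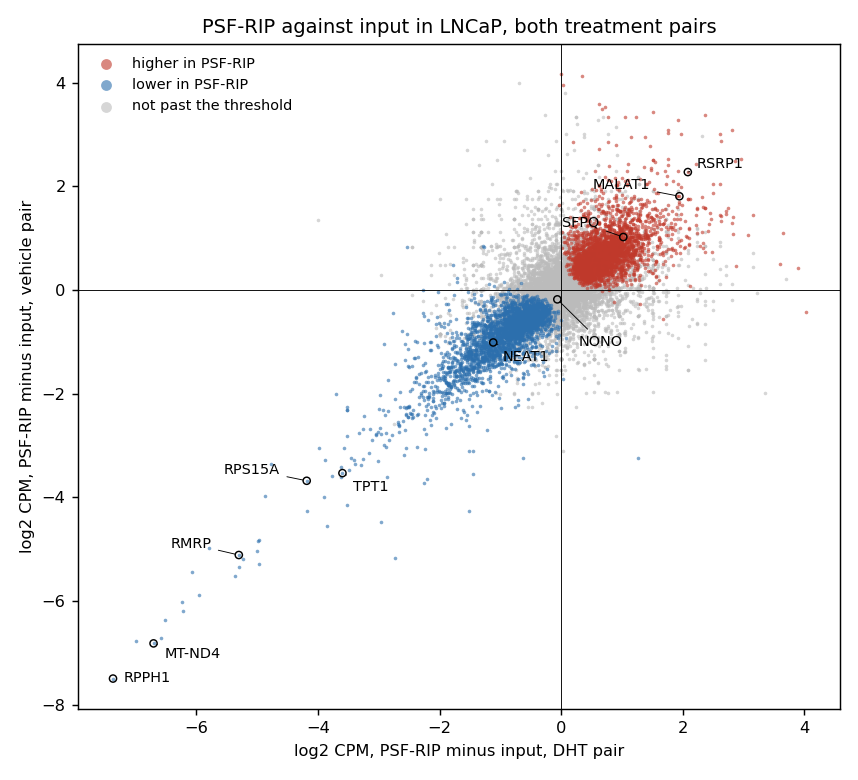
Each point is 1 of 13776 genes, placed by the difference in log2 CPM (reads scaled by the library size, prior count 2) between PSF-RIP and input in the DHT pair (x axis) and in the vehicle pair (y axis) of LNCaP, coloured by the edgeR call. RPPH1 lies at the far low end in both pairs and RSRP1 and MALAT1 near the high end, while NONO lies close to 0 in both.

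The DHT pair and the vehicle pair ranked the genes alike. Over the 5096 genes with at least 50 reads in each of the 4 libraries, the 2 pair values had a Pearson r of 0.95 and a Spearman rho of 0.92 across genes, which are not independent replicates. The DHT value minus the vehicle value had an SD of 0.25 on the log2 scale, and 94.5% of these genes lay within 0.5.

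Among genes with at least 10 reads in each LNCaP library, RSRP1 (chr1:25568728-25664745 on GRCh37), which encodes a protein rich in arginine and serine, had the highest enrichment. RSRP1 had 77.2 (DHT) and 118 CPM (vehicle) in PSF-RIP, against 17.8 and 23.8 CPM in the inputs. Its log2 fold change was 2.22 ± 0.19 (SE, higher in both pairs, adjusted p = 5.5e-31 by edgeR). MALAT1 (chr11:65265233-65273983) had 86680 and 83940 CPM in PSF-RIP, against 22490 and 23920 CPM in the inputs. That is a log2 of 1.88 ± 0.15, or 3.68-fold (adjusted p = 1.75e-33 by edgeR), and no PSF-RIP value comes near an input value.

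The kinase CLK1, which phosphorylates SR splicing proteins, had 79.0 and 147 CPM in PSF-RIP, against 19.4 and 46.9 CPM in the inputs, a log2 of 1.78 ± 0.16. CCNL2, a cyclin that works in transcription and pre-mRNA processing, had 212 and 354 CPM, against 79.2 and 105 CPM (log2 1.60 ± 0.12). OGT, the enzyme that attaches O-linked N-acetylglucosamine to proteins, had 239 and 428 CPM, against 79.2 and 146 CPM (log2 1.57 ± 0.11). MAT2A, which makes the methyl donor S-adenosylmethionine, had 509 and 810 CPM, against 187 and 249 CPM (log2 1.58 ± 0.10). In these genes the vehicle values are above the DHT values in both assays, and each PSF-RIP library lies above the input of its own treatment.

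Others among the 15 highest were SETD4 (a lysine methyltransferase, log2 2.08), C1orf35 (1.94), AHSA2 (1.83), the spliceosome gene CWC25 (1.66), the kinesin adaptor gene MAPK8IP3 (1.64), TTC14 (1.59), PRICKLE4 (1.59) and the DNA helicase gene RECQL4 (1.56), with SE of 0.15 to 0.29. Several rest on few input reads: SETD4 had 11 (DHT) and 10 (vehicle), PRICKLE4 12 and 12 and RECQL4 22 and 10.

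At the other end stood RPPH1 (chr14:20811230-20811570), the RNA subunit of ribonuclease P. It had 230 (DHT) and 304 CPM (vehicle) in PSF-RIP, against 38250 and 55160 CPM in the inputs, which is 174-fold lower (log2 -7.44 ± 0.19). RMRP (chr9:35657748-35658015), the RNA of the related ribonuclease MRP, had 389 and 504 CPM, against 15360 and 17480 CPM (log2 -5.21 ± 0.14). Both are noncoding RNAs made by RNA polymerase III, and their 2 groups of libraries are far apart. Of 65 structured small RNAs tested, 12 (18.5%) were higher in PSF-RIP and 32 (49.2%) lower, against 21.2% and 20.7% of all genes tested.

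Other structured RNAs among the 15 lowest were RNU4ATAC of the minor spliceosome (log2 -5.05 ± 0.50), SNORA12 (-4.30 ± 0.46, inside CWF19L1) and SNORD133 (-3.51 ± 0.36, inside LARP4). The mRNAs in that group were RPS15A (-3.94), RPS12 (-3.69) and RPS29 (-3.51) of the small ribosomal subunit, TPT1 (-3.57), which encodes a translationally controlled growth protein, and COMMD6 (-3.66). TPT1 had 82.2 and 81.2 CPM in PSF-RIP, against 1001 and 946 CPM in the inputs. The noncoding LOC101927415 (-4.06) and FLJ44635 (-4.02), which has an mRNA record, completed the group. Several of these rest on few PSF-RIP reads: SNORA12 had 1 (DHT) and 9 (vehicle), and its log2 was -6.21 without the vehicle pair and -3.66 without the DHT pair. COMMD6, with 8 and 17 reads, was at -4.27 without the vehicle pair and -3.20 without the DHT pair. RNU4ATAC and LOC101927415 had 2 and 4 reads each, and FLJ44635 had 3 and 6.

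MTRNR2L1, MTRNR2L6 and MTRNR2L8 were also there, but with so few PSF-RIP reads that only a ratio of summed reads is given. MTRNR2L1 had 1 PSF-RIP read in all, and its ratio to input was 0.00514 (exact 95% interval 0.000128 to 0.0299, counting error only). MTRNR2L6 and MTRNR2L8 had 3 PSF-RIP reads each, with ratios of 0.0257 (0.00504 to 0.0819) and 0.0207 (0.00410 to 0.0649). These nuclear genes resemble mitochondrial ribosomal RNA: 11.9% of the 25-base words of MTRNR2L1, 7.51% of MTRNR2L6 and 29.5% of MTRNR2L8 occur in the mitochondrial genome, so their reads are uncertain.

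Of the 27 mitochondrial genes tested, 26 were lower in PSF-RIP and none was higher, with a median log2 of -5.13. MT-ND6, with 903 (DHT) and 828 (vehicle) input reads, was the one that did not pass. Its log2 was below 0 too, as the highest value of the 27 genes was -2.18. MT-ND4, a subunit of respiratory complex I, had 247 and 302 CPM in PSF-RIP, against 25800 and 34190 CPM in the inputs (log2 -6.77 ± 0.18). MT-RNR1, the small mitochondrial ribosomal RNA, was at -4.22 ± 0.14.

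The DBHS genes and paraspeckle genes came next. SFPQ mRNA (chr1:35649201-35658743), which encodes PSF itself, had 375 and 388 CPM in PSF-RIP, against 184 and 191 CPM in the inputs. Its log2 was 1.03 ± 0.10, with 1.02 in each pair (adjusted p = 2.32e-23 by edgeR). PSPC1 was higher too, with 31.8 and 30.1 CPM against 13.7 and 20.6 CPM (log2 0.85 ± 0.24, adjusted p = 0.00167 by edgeR). Without the DHT pair the PSPC1 value was 0.55 (adjusted p = 0.223). NONO had 277 and 255 CPM in PSF-RIP, against 289 and 289 CPM in the inputs, a log2 of -0.12 ± 0.09 that did not pass (adjusted p = 0.322).

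NEAT1 (chr11:65190269-65213009), the RNA scaffold of paraspeckles, was lower in PSF-RIP and has 22741 exonic bases. It had 1267 and 1891 CPM in PSF-RIP, against 2747 and 3811 CPM in the inputs, a log2 of -1.06 ± 0.09 (adjusted p = 2.01e-28 by edgeR). So the 2 long nuclear RNAs that lie near each other on chromosome 11, MALAT1 and NEAT1, went in opposite directions, and in both the PSF-RIP and input values do not overlap. Of the 32 paraspeckle and DBHS genes, 17 (53.1%) were higher and 4 (12.5%) lower, against 21.2% and 20.7% of all genes tested. Their median log2 was 0.41, against 0.03 over all genes tested. AHDC1 (1.24), EWSR1 (0.95) and TARDBP (0.90), of which EWSR1 and TARDBP encode RNA-binding proteins, were among the higher members. NUDT21 of the cleavage factor complex (-0.78), ZNF24 (-0.69) and FAM98A (-0.54) were lower beside NEAT1.

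Messenger RNAs of large splicing factors were mostly higher in PSF-RIP and those of small ones mostly lower. Of 23 genes of cyclin L, CDK11 and related kinases and RNA-processing genes, 19 (82.6%) were higher and 2 (8.7%) lower (median log2 0.98). Over all genes tested 21.2% were higher and 20.7% lower. LUC7L3 of the U1 snRNP had 301 and 450 CPM in PSF-RIP, against 116 and 143 CPM in the inputs (1.52 ± 0.11). CCNL1 was at 1.50 ± 0.14 and RBM39, a coactivator of splicing, at 1.02 ± 0.10, while CCNT1 (-0.76) and CCNK (-0.66), cyclins of transcription elongation, were lower.

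For SR proteins and their kinases the counts were 14 higher and 3 lower of 23, led by SRSF5 (1.38 ± 0.11) and SRSF6 (0.96 ± 0.10). Those are 60.9% and 13%, against 21.2% and 20.7% of all genes tested. Among hnRNP genes 18 of 27 (66.7%) were higher and 2 (7.41%) lower. PTBP3, a polypyrimidine tract binding protein, had 62.7 and 64.8 CPM in PSF-RIP, against 147 and 165 CPM in the inputs (-1.29 ± 0.12), and HNRNPH1 was at 0.89 ± 0.10. The list of 29 large U2 and U5 factors also takes in other spliceosome genes, and 21 of it were higher and none lower. Among the higher were SF3B1 (1.09 ± 0.11), SUGP2 (1.14 ± 0.11) and SNRNP70 of the U1 snRNP (1.06 ± 0.12).

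The Sm, LSm and other small spliceosome proteins showed 1 higher, SNRPA (0.37), and 16 lower of 24 (median log2 -0.77). Those are 4.17% and 66.7%, against 21.2% and 20.7% of all genes tested. LSM2 was at -2.10 ± 0.21 and SNRPD2 at -1.40 ± 0.13. The median exonic length of this list was 1190 bases, against 3600 for the large U2 and U5 factors and 3131 over all genes tested. With the trend on length removed from every library, the median of the Sm and LSm list was -0.33, that of the large U2 and U5 factors 0.56 and that of the cyclin L and related genes 0.91, and the count of all genes called was 5543. Under the same setting the cytosolic ribosomal protein genes had a median of -1.02 and the nuclear oxidative phosphorylation genes one of -0.29.

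Genes of nuclear receptor coregulators and chromatin, which work with nuclear receptors, gave 29 higher and none lower of 38 (median log2 0.51, median exonic length 8060 bases). EP300, a histone acetyltransferase, had 437 and 403 CPM in PSF-RIP, against 198 and 220 CPM in the inputs (1.01 ± 0.10). NCOR1, a corepressor, was at 0.77 ± 0.10 and the histone methyltransferase KMT2B at 1.26 ± 0.16. Of 35 centrosome genes 16 (45.7%) were higher and 2 (5.71%) lower. Of 24 cleavage and polyadenylation factors 11 (45.8%) were higher and 2 (8.33%) lower. Over all genes tested 21.2% were higher and 20.7% lower.

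Genes of cytosolic ribosomal proteins (89.2%), nuclear oxidative phosphorylation (80.5%) and replication-dependent histones (66%) were mostly lower in PSF-RIP. Over all genes tested 20.7% were lower and 21.2% higher. Of 74 cytosolic ribosomal protein genes 66 were lower and 2, RPS3A (1.34) and RPL36A (1.00), higher, with a median log2 of -1.80. RPL37 had 140 and 148 CPM in PSF-RIP, against 1220 and 1098 CPM in the inputs (-3.01 ± 0.09). Ribosomal protein genes have many processed copies in the genome, so their counts are uncertain. Of 77 nuclear genes of oxidative phosphorylation 62 were lower and 6 higher (median -1.15), among them ATP5E (-3.33 ± 0.14) and COX6C (-2.40 ± 0.14). Replication-dependent histones, whose mRNAs lack a poly(A) tail, had 31 lower and 2 higher of 47, HIST1H4C being at -3.06 ± 0.25. The median of the histone list was -1.06, and it turned to 0.10 with the trend on length removed.

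**Figure D2:**
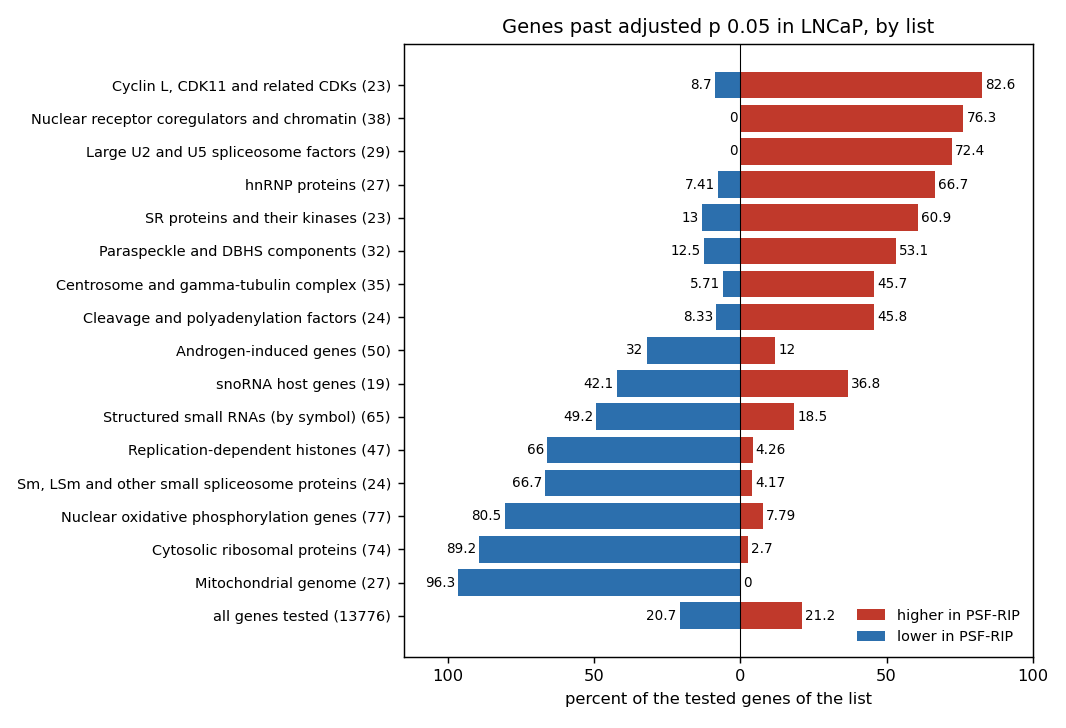
Bars give the percentage of tested genes in each list (number in brackets) that were higher (right) or lower (left) in PSF-RIP at an edgeR adjusted p under 0.05 in LNCaP, with all genes tested at the bottom. Cyclin L and related genes reach 82.6% higher, and ribosomal protein genes 89.2% lower, against 21.2% and 20.7% over all genes.

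Androgen target mRNAs check the treatment labels. KLK3, which encodes prostate-specific antigen, had 955 CPM in the DHT PSF-RIP and 117 CPM in the vehicle PSF-RIP, against 919 and 126 CPM in the DHT and vehicle inputs. Its enrichment was log2 0.00 ± 0.09 (adjusted p = 1.00 by edgeR), and the DHT library lay above the vehicle library in both assays. No test was run on differences between the treatments. KLK2 was at 0.25 ± 0.11 (adjusted p = 0.0632) and FKBP5, a cochaperone of steroid receptors, at -0.16 ± 0.11 (adjusted p = 0.254). The protease gene TMPRSS2 passed at 0.27 ± 0.10 (adjusted p = 0.0246), but not with either pair left out (adjusted p = 0.167 without the vehicle pair and 0.159 without the DHT pair).

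Of 50 androgen-induced genes 6 (12%) were higher and 16 (32%) lower (median log2 -0.08). DBI, an acyl-CoA binding protein gene, was at -1.55 ± 0.11 and ELOVL5, a fatty acid elongase gene, at -0.90 ± 0.09, while SPDEF, a prostate ETS factor gene, was at 0.56. Of 18 androgen-repressed genes 4 (22.2%) were higher and 6 (33.3%) lower. In the unfolded protein and integrated stress response, 6 of 33 genes (18.2%) were higher and 9 (27.3%) lower, near the 21.2% and 20.7% of all genes. ATF4 (0.50), DDIT3 (0.99) and PPP1R15A (0.82) were among the higher members and CANX (-0.70), DNAJC3 (-0.93) and XBP1 (-0.74) among the lower. Other lists gave 9 higher and 10 lower of 29 for sterol and fatty acid synthesis, 11 and 2 of 35 for replication and mitosis, 6 and 6 of 21 for p53 targets, 4 and 4 of 17 for luminal lineage factors and 4 and 4 of 21 for long noncoding RNAs.

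A few genes differed in enrichment between the treatments, as a description with no test. ATP5I, a subunit of ATP synthase, was the gene whose value was most above in the DHT pair: 46.6 CPM in PSF-RIP against 76.8 in the input with DHT, and 34.5 against 152 with vehicle, a difference of 1.41 between the pair values on the log2 scale. POLR2F, a subunit of RNA polymerases, followed at 1.07, and APBA2, CYTH3 and ZC3H4 lay between 0.80 and 0.88. The lowest were ATP5G3 (-1.02), RPS20 (-0.95), VAMP3 (-0.94), NUDT16P1 (-0.93) and POLR1D (-0.89). Only 3 of the 5096 genes went beyond 1, and each treatment pair is a single pair of libraries.

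Intronic reads gave a second measure of the same libraries. They were summed per gene over 124048 introns that overlap no listed exon. Bulk shares were instead taken over all 142182 introns of the transcripts used, with those that overlap a listed exon included. Of intronic and nuclear exonic reads together, these introns made up 17.1% (DHT) and 19.98% (vehicle) in PSF-RIP. In the inputs they made up 16.5% and 18.2%, so the bulk shares differed little. Of 10195 genes with enough intronic reads, 575 (5.64%) were higher in PSF-RIP and 532 (5.22%) lower by the same edgeR test. Without the pairing 375 passed.

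The intronic reads of SFPQ lay mostly in 1 place. A single intron of 2407 bases (chr1:35650195-35652601), the last one of the transcript on its minus strand, held 93.1% of its intronic reads. That intron had 434 (DHT) and 736 (vehicle) reads in PSF-RIP, against 51 and 74 in the inputs, and the intron with the next most reads had 5 and 32, against 6 and 13. Summed over its introns, SFPQ was at log2 1.02 ± 0.16 (adjusted p = 2.71e-07 by edgeR), the same size as its exonic enrichment.

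Among the 8 genes with the highest intronic enrichment was CCNL1. In it a single intron of 1795 bases held 93.3% of the intronic reads, with 152 and 367 reads in PSF-RIP, against 15 and 27 in the inputs (1.66 ± 0.24). SAT1, a spermidine acetyltransferase gene, was at 1.82 ± 0.20 in introns and at -0.28 in exons.

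HNRNPH1 (1.69 ± 0.16), UQCRC2 (1.65 ± 0.20) of respiratory complex III, MRPS26 (1.88 ± 0.25) of the mitochondrial ribosome, ANKDD1A (1.95 ± 0.20) and ZNF358 (1.67 ± 0.28) were also among them. OGT, high by exons, had 90.3% of its intronic reads in 1 intron of 3271 bases, with 571 and 1392 reads in PSF-RIP, against 60 and 101 in the inputs (1.29 ± 0.15). In contrast, RSRP1 had 0 to 3 intronic reads in each library, and CCNL2 (0.45 ± 0.36) and CLK1 (0.57 ± 0.70) did not pass by introns.

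The androgen-induced kallikrein genes differed between exons and introns. KLK2 introns had 1128 (DHT) and 120 (vehicle) reads in PSF-RIP, against 153 and 14 in the inputs, a log2 of 1.07 ± 0.18 (adjusted p = 8.06e-07 by edgeR), beside 0.25 in exons. A single KLK2 intron of 1505 bases held 77.5% of these reads, with 899 and 104 in PSF-RIP, against 85 and 8 in the inputs. The KLK2 intron with the next most reads had 202 and 14, against 60 and 6. KLK3 introns had 1796 and 305 reads, against 285 and 56, a log2 of 0.68 ± 0.15 (adjusted p = 0.000644 by edgeR), beside 0.00 in exons. FKBP5 (-0.56 ± 0.27) and TMPRSS2 (-0.15 ± 0.18) did not pass by introns. The difference between the intronic and the exonic value was not tested.

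The same contrast ran through the ribosomal protein genes. Of 58 tested both ways, 54 had both intronic pair values above both exonic pair values, against 28.0% of the 9911 genes tested both ways. Their median intronic log2 was 0.70, with 17 of 61 higher and 4 lower, while their exonic median was -1.80. Nuclear oxidative phosphorylation genes showed this order in 54 of 68, with an intronic median of 0.10. RPS15A was low by both measures, with an intronic log2 of -3.06 ± 0.28 beside -3.94 in exons. Nuclear receptor coregulators had the opposite order of medians, at -0.29 in introns with 1 higher and 7 lower of 38, beside 0.51 in exons. Of all genes tested by introns 5.64% were higher and 5.22% lower. Over all 9911 genes the exonic and intronic values had a Spearman rho of 0.24 across genes, 281 genes were higher by both and 196 lower by both.

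**Figure D3:**
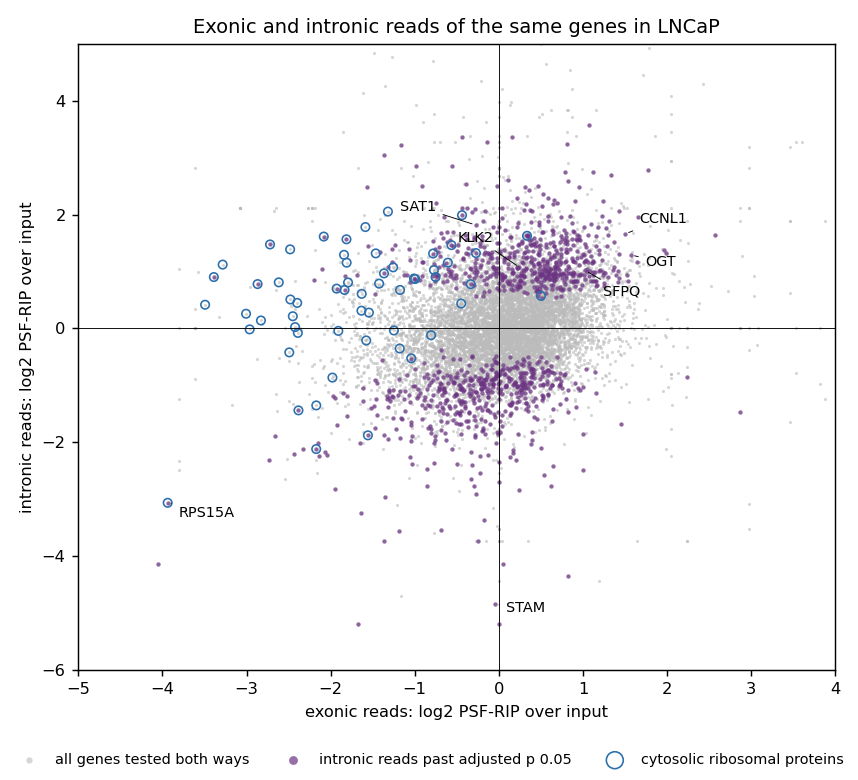
Each point is 1 of 9911 genes, with the log2 of PSF-RIP over input from exonic reads on the x axis and from intronic reads on the y axis in LNCaP, and 30 points lie outside the axes. Most ribosomal protein genes (open circles) lie left of 0 and near or above 0 on the y axis, and SFPQ, OGT and CCNL1 lie to the upper right.

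Genes with a larger intronic share in the input had higher exonic log2 values. The exonic input reads enter both the share and the log2, so few of them raise both at once. How much of the order comes from this was not tested. In the 1738 genes with the lowest share (up to 6.81% of their input reads in introns) the median exonic log2 was -0.21, with 19.1% higher and 44.2% lower. In the 1736 genes with the highest share (27.2% and up) it was 0.20, with 30.5% higher and 9.56% lower. The order held in both pairs, which use the same inputs as the share. The values were -0.22 (DHT) and -0.21 (vehicle) for the lowest and 0.21 and 0.22 for the highest group. The median exonic lengths of the 2 groups were close, at 3220 and 3180 bases.

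At the low end of the intronic values stood STAM (-4.85 ± 0.24), where 1 intron had 5 and 5 reads in PSF-RIP, against 110 and 111 in the inputs, LOC400684 (-3.74 ± 0.30), TSPAN14 (-2.91 ± 0.20), PRDM10 (-2.84 ± 0.26), C6orf52 (-2.82 ± 0.28) and HFM1 (-2.77 ± 0.12). In each of these a single intron held 53.3% to 100% of the reads. The leading introns of these genes hold none of the 25-base words of the mitochondrial genome.

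The 4 PSF-CLIP peak lists of LNCaP (2 per treatment), from RNA crosslinked to PSF, were set beside these calls. Positions and scores are the authors'. The second list of each treatment has a title ending in CLIP2 and a different antibody name, anti-PSF-m, which no label explains. Its peaks are narrower, with a median width of 158 (DHT) and 139 bases (vehicle), against 410 and 491 in the first, and whether the lists are replicates is not known. The lists held 23580 and 13546 peaks with DHT and 24242 and 7691 with vehicle, and 829 regions were covered in all 4. Of these, 418 lay inside exactly 1 tested gene, 369 of them in introns. A peak in an exon, in at least 1 list, was found for 34.3% of genes higher in PSF-RIP (942 of 2749) and for 34.7% of genes lower (892 of 2572), against 27.8% of all 12691 nuclear genes matched to exons. No test was run on these shares, and they moved with the level and the span of the gene. In the 3173 genes with the highest input level the share was 45.8% of higher, 39.5% of lower and 42.8% of all genes, and in the 3172 genes next in level it was 34.5%, 35.1% and 34.4%. In the 3173 genes with the shortest spans 25.8% of higher and 18.6% of lower genes had an exonic peak, and in the 3173 next in span 28.5% and 36%. Anywhere in the gene span a peak was found for 63.7% of higher and 57.6% of lower genes, against 55.5% of all. It was found for 10 of the 15 highest and 5 of the 15 lowest genes. MALAT1 had an exonic peak in 2 lists, the second of each treatment, and TPT1, among the lowest, in all 4. NEAT1, lower in PSF-RIP, had 0 (DHT) and 1 (vehicle) exonic peaks in the first lists and 7 and 3 in the second. RSRP1, CCNL2 and KLK3 had no peak in any list.

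Regions covered in all 4 lists are shown for SFPQ, whose last intron carried the intronic enrichment, and for PNN and THOC2, which serve splicing and mRNA export. Each is the middle 100 bases on the strand of the gene, from the GRCh37 genome, with TGGAG in capitals, a motif reported for PSF in vitro.
SFPQ, last intron, chr1:35651413-35651512, minus strand: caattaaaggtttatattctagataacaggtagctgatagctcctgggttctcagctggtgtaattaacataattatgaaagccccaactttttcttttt
PNN, coding exon, chr14:39650745-39650844, plus strand: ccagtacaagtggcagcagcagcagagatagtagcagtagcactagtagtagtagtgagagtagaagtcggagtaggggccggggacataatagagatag
THOC2, intron, chrX:122812848-122812947, minus strand: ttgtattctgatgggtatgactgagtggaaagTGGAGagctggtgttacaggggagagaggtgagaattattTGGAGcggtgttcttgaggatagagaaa

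The THOC2 window holds TGGAG in 2 places, while those of SFPQ and PNN hold it in none. Of the 418 windows, 28.95% hold TGGAG on the strand of the gene and 1.675% hold its reverse complement, CTCCA. A match is only a description of letters, and peaks carry no strand of their own. PNN mRNA was higher in PSF-RIP (1.16 ± 0.10) and so was THOC2 (1.16 ± 0.12).

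The question of what sets LNCaP apart was put to the data as the LNCaP enrichment minus the mean enrichment of 22Rv1 and LTAD, in the same edgeR model. At an adjusted p under 0.05, 229 genes (1.66%) differed, 85 (0.617%) higher and 144 (1.05%) lower in LNCaP. Both LNCaP pair values lay outside all 4 pair values of the other lines for 78 of the 85 and 139 of the 144. Over all genes tested that was so for 8.04% above and 12.1% below. These differences rest on the pairing: without it none passed in edgeR, with 527 genes at an unadjusted p under 0.05, against 1811 with it. DESeq2 made 18 calls and limma-voom 69.

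ATF4 (chr22:39916564-39918691), the transcription factor of the integrated stress response, had the smallest adjusted p of the genes named for this difference. It had 195 (DHT) and 218 CPM (vehicle) in PSF-RIP, against 147 and 146 CPM in the inputs, so it was higher in PSF-RIP in LNCaP with pair values of 0.40 and 0.59. In the other lines it was lower in PSF-RIP in every pair, from -0.89 to -0.33. The difference was 1.08 ± 0.13 (adjusted p = 3.01e-13 by edgeR), 1.20 against 22Rv1 and 0.97 against LTAD, both past the threshold. It passed without the vehicle pair (adjusted p = 4.50e-05) and without the DHT pair (adjusted p = 3.55e-08).

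GNG5, a G protein gamma subunit gene, was lower in PSF-RIP in all lines, but less so in LNCaP. It had 60.2 and 58.8 CPM in PSF-RIP, against 143 and 145 CPM in the inputs, with pair values of -1.24 and -1.29 beside -2.82 to -1.75 in the other lines. The difference was 1.09 ± 0.17 (adjusted p = 1.04e-07 by edgeR), and it passed with either pair left out. The snoRNA SNORA73B, inside RCC1 and SNHG3, was lower by more in LNCaP, at -2.12 and -2.40 beside -1.87 to 0.02, a difference of -1.42 ± 0.21 that also passed with either pair left out. SNORA73B differed by -2.16 from 22Rv1 (adjusted p = 5.19e-15 by edgeR) but by -0.67 from LTAD (adjusted p = 0.176), and its call was lost without 22Rv1. ATF4, GNG5 and SNORA73B alone kept the call with either pair left out, of 25 genes named for this difference and called. Among these the call was lost for 22 without the vehicle pair and for 10 without the DHT pair.

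MALAT1 was enriched more in LNCaP, with pair values of 1.95 (DHT) and 1.81 (vehicle), than in the other lines, where they ran from 0.58 to 1.37. It differed by 0.95 ± 0.18 (adjusted p = 0.000102 by edgeR). Against 22Rv1 alone the difference was 1.26 (adjusted p = 1.48e-06) and against LTAD alone 0.63 (adjusted p = 0.0894). Without the vehicle pair it was 1.02 (adjusted p = 0.0650) and without the DHT pair 0.87 (adjusted p = 0.0788). MALAT1 also took a larger share of LNCaP input, 1.60% and 1.59%, than of the other inputs, at 0.614% to 1.06%.

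**Figure D4:**
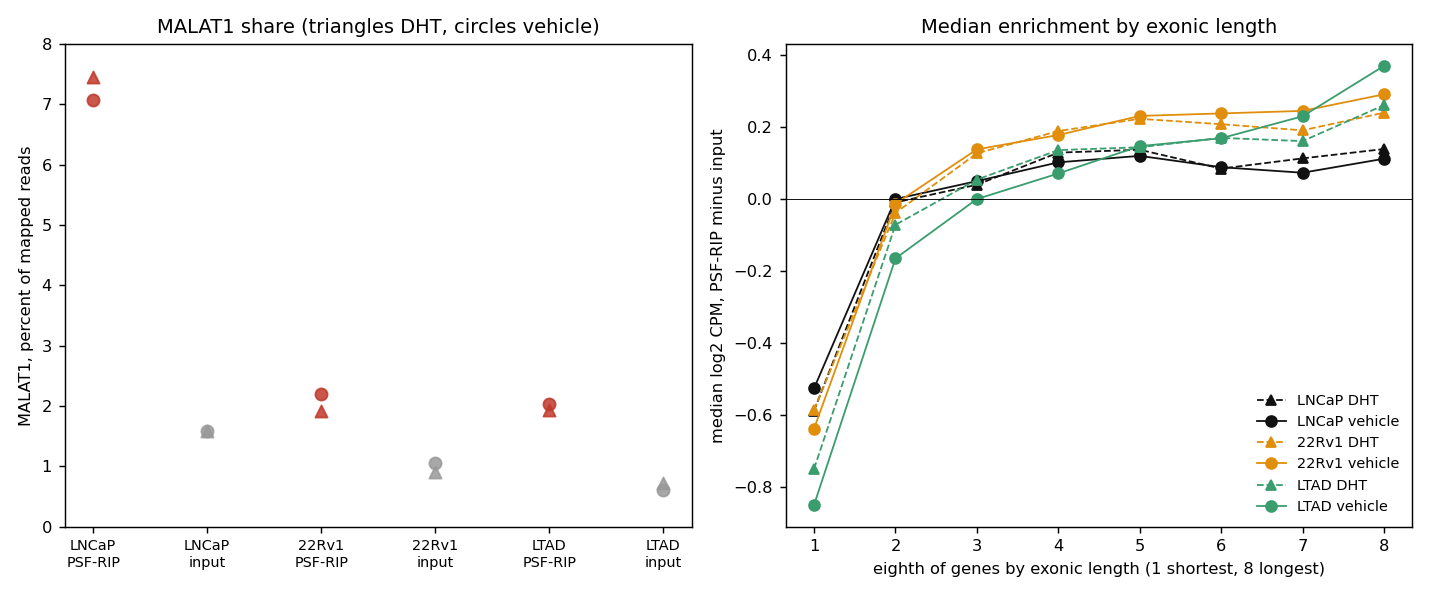
The left panel gives the percentage of mapped reads from MALAT1 in each library, and the right panel the median difference in log2 CPM between PSF-RIP and input over genes in 8 groups of rising exonic length, a line for each pair. MALAT1 takes 7.07% to 7.45% of LNCaP PSF-RIP reads and at most 2.21% elsewhere, and the LNCaP lines are the lowest ones in the longest group.

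The other genes higher in LNCaP than in the other lines were RNVU1-8 (1.43), ARL16 (1.31), LOC105369635 (1.30), SNHG15 (1.29), CRLF3 (1.26), ITGB1BP1 (1.24), C1orf35 (1.20), USMG5 (1.16), EMC9 (1.12) and HMGN3 (1.07), with SE of 0.25 to 0.42. Many of these calls rest on 1 of the other lines: of the 25 named and called genes, 6 passed against 22Rv1 and against LTAD taken singly, namely ATF4, GNG5, ARL16, USMG5, SMAD7 and PCDHB13. The call was lost for 20 of the 25 without 22Rv1 and for 4 without LTAD. RNVU1-8 differed from LTAD by 0.65 (adjusted p = 0.688 by edgeR), SNHG15 by 1.17 (adjusted p = 0.182), and EMC9 from 22Rv1 by 0.83 (adjusted p = 0.225). C1orf35, among the highest in LNCaP at 1.58 (DHT) and 2.27 (vehicle), lay at 0.51 to 0.85 in the other lines. ITGB1BP1, an integrin-binding protein gene, was at 1.08 and 1.20, beside -1.06 and -0.51 in 22Rv1 and 0.40 and 0.93 in LTAD, so it differed from 22Rv1 (1.95, adjusted p = 2.26e-09) but not past the threshold from LTAD (0.53, adjusted p = 0.442). SNHG15 contains SNORA9, USMG5 contains MIR1307 and LOC105369635 contains MIR200C and MIR141.

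Genes lower in LNCaP than in the other lines were PDIA2 (-4.01 ± 1.06), SNORD17 (-2.04), MT-TE (-1.88), LINC01004 (-1.54), MSH5 of the mismatch repair family (-1.46), the TGF-beta inhibitor SMAD7 (-1.37), HLA-DQB1 (-1.36), ADAP2 (-1.35), PCDHB13 (-1.29), the basement membrane proteoglycan gene HSPG2 (-1.25) and ZNF124 (-1.12). SMAD7 had pair values of 0.32 and -0.48 in LNCaP, beside 1.07 to 1.40 in the other lines. The size for PDIA2 is not a bound. Its inputs held 0 reads in both LTAD libraries and 1 (DHT) and 4 (vehicle) in 22Rv1. Others also rest on few input reads in another line. HSPG2 had 3 and 3 in 22Rv1, and SNORD17 had 5 and 6 in 22Rv1 and 10 and 4 in LTAD. In LTAD, MSH5 had 2 and 6, HLA-DQB1 5 and 8 and MT-TE 4 and 8. MSH5 is uncertain as it shares a strand with the readthrough MSH5-SAPCD1.

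Of the DBHS, paraspeckle and kallikrein genes set by name, SFPQ (0.05 ± 0.13), NONO (0.01 ± 0.12), NEAT1 (-0.13 ± 0.12) and KLK3 (0.15 ± 0.23) did not pass for the difference between lines.

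**Figure D5:**
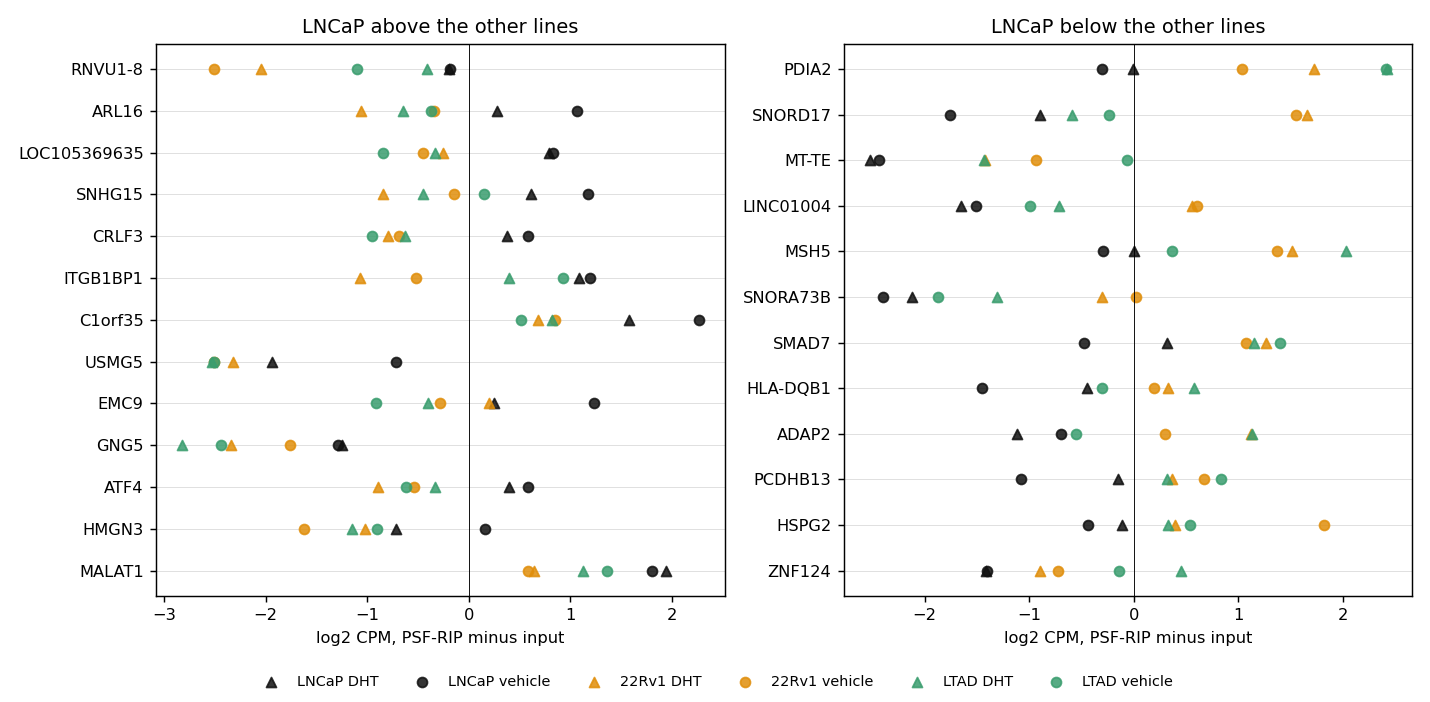
Difference in log2 CPM (prior count 2) between PSF-RIP and input in each of the 6 pairs, for the 12 genes most above (left, with MALAT1 added) and most below (right) the other lines in LNCaP. Black symbols are LNCaP, triangles DHT and circles vehicle. In every row both black symbols lie beyond all the coloured ones. That was a condition for choosing the 12 genes of each panel, but not for MALAT1.

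Among the lists with more than 10 tested genes, snoRNA host genes had the median difference between lines farthest from 0, at 0.60. Their median log2 was -0.20 in LNCaP, -0.91 in 22Rv1 and -0.71 in LTAD, and in 10 of 19 both LNCaP pairs lay above all others, against 8.04% of all genes. SNHG15 (1.29 ± 0.35), SNHG6 (0.96 ± 0.22) and GAS5 (0.84 ± 0.25) passed for the difference. Within LNCaP, 7 of the 19 were higher in PSF-RIP, such as SNHG12 (2.06 ± 0.30) and SNHG1 (0.83 ± 0.15), and 8 lower, such as SNHG3 (-1.36 ± 0.09) and ZFAS1 (-1.44 ± 0.17). Those are 36.8% and 42.1%, against 21.2% and 20.7% of all genes tested. The direction of this list's median was not stable: it was 0.08 without the DHT pair and 0.59 with the trend on length removed.

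Nuclear receptor coregulators leaned the other way, with a median of 0.51 in LNCaP, 0.64 in 22Rv1 and 0.71 in LTAD. They are long genes, with a median of 8060 exonic bases. Their median difference between lines was -0.175, close to the -0.165 of the 1722 longest genes of all. Whether the list differs from other long genes was not tested. Both LNCaP pairs lay below all others in 15 of 38, against 12.1% of all genes, and KMT2D (-0.55 ± 0.12), TRRAP (-0.55 ± 0.13), CHD8 (-0.44) and CREBBP (-0.41) passed for the difference. Among androgen-induced genes KLK4, a kallikrein gene, had pair values of -0.33 and -0.17 in LNCaP and a difference of 1.02 ± 0.15 (adjusted p = 1.50e-08 by edgeR). SRSF6 (0.50), PCBP2 (0.47) and SNRPF (0.62) were above the other lines, and PRPF8 (-0.42), EFTUD2 (-0.65) and INTS1 (-0.48) below them.

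Gene length moved with the difference between lines. In the 1722 shortest genes, up to 1402 exonic bases, the median pair values were -0.59 (DHT) and -0.53 (vehicle) in LNCaP, beside -0.85 to -0.59 in the other lines. In the 1722 longest genes, from 6358 bases, they were 0.14 and 0.11 in LNCaP, beside 0.24 to 0.37. From the shortest to the longest group the median changed by 0.73 and 0.64 in LNCaP and by 0.83 to 1.22 in the other 4 pairs. Genes higher in LNCaP than elsewhere had a median exonic length of 1611 bases and those lower 5480. With the length trend removed 144 genes differed between the lines, 74 of them higher, and 102 were shared with the 229.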

How the data were processed

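Counts of reads per RefSeq transcript, intron and other feature, on the sense and antisense strand, were deposited by the authors as whole numbers with no normalization. Per the submitters' processing notes the tools include TopHat2 2.1.0, Bowtie2 2.2.6 and Bowtie, and the build is hg19 (GRCh37). Libraries were made with a target enrichment kit, per the labels' protocols, which could change the levels of single genes. CLIP peak lists carry a peak score, which the authors deposited with a lowest value of 50; for the peak caller and its parameters no source used here gives a name. Coordinates are 1-based.

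Each gene symbol was represented by its transcript with the highest mean count, and genes were kept by edgeR's filterByExpr. edgeR 4.0.16 (R 4.3.3) was run on the counts of 12 libraries with TMM factors, robust quasi-likelihood fits, 6 line and treatment pairs and an assay term per line, leaving 3 residual degrees of freedom, with Benjamini-Hochberg adjustment and a threshold of 0.05. Intronic reads were fitted the same way with their own library sizes. Pair values are differences in log2 CPM with a prior count of 2; CPM and RPKM use library sizes on genes. Intervals cover counting error only.

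The pairing comes from the labels (same line and treatment). Over well-counted genes, the DHT minus vehicle difference in PSF-RIP correlated with that in input at r = 0.71 in LNCaP, 0.70 in 22Rv1 and 0.77 in LTAD. The named genes are 10 set by name, the 15 highest called genes with at least 10 reads in each LNCaP library, the 15 lowest with at least 10 in each input (both with 1 sign in both pairs), the 12 most above and 12 most below the other lines among called genes whose pairs do not overlap, the 8 highest and 8 lowest by introns, the 5 most different in each direction between treatments, and members of the lists; some genes that these rules name are not reported here. Genes chosen as most above or below the other lines also had at least 10 reads in each LNCaP input, with no such rule for the other lines. The lists and their members were chosen with earlier results of these data known. The alternatives were DESeq2 1.42.0, limma-voom (limma 3.58.1), other scaling, filters, transcripts and depths, and leaving out a pair or a line. A further 12 columns of per-sample values were not used, because their names do not match the labels of 1 sample only. Only the test of LNCaP against the other lines was checked on simulated data. Those data held no difference between treatments, so they could not check the pairing.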

Additional observations from a re-analysis of the deposited data

Results flagged for a closer look

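The enrichment of 229 genes in LNCaP differed from the mean of 22Rv1 and LTAD by a test of that difference in edgeR. None of them passed without the pairing. Among the named genes the difference, on the log2 scale, was above 0 for RNVU1-8 (1.43), ARL16 (1.31), LOC105369635 (1.30), SNHG15 (1.29), CRLF3 (1.26), ITGB1BP1 (1.24), C1orf35 (1.20), USMG5 (1.16), EMC9 (1.12), GNG5 (1.09), ATF4 (1.08), HMGN3 (1.07) and MALAT1 (0.95). It was below 0 for PDIA2 (-4.01), SNORD17 (-2.04), MT-TE (-1.88), LINC01004 (-1.54), MSH5 (-1.46), SNORA73B (-1.42), SMAD7 (-1.37), HLA-DQB1 (-1.36), ADAP2 (-1.35), PCDHB13 (-1.29), HSPG2 (-1.25), ZNF124 (-1.12) and RMRP (-0.81). RMRP was lower in PSF-RIP in all 6 pairs, at -5.30 and -5.11 in LNCaP and -4.98 to -3.83 in the other lines. It differed by -1.25 from 22Rv1 (adjusted p = 8.84e-10 by edgeR) but by -0.37 from LTAD (adjusted p = 0.307 by edgeR).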

How the results depend on the processing

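Genes past the threshold in LNCaP numbered 5769, against 3609 with DESeq2 (3607 shared with the 5769), 2886 with no pairing (no replicate block, 2884 shared) and 3715 to 3976 with a pair left out (3604 and 3824 shared). For the difference between lines the 229 became 18 with DESeq2, 69 with limma-voom, 0 with no pairing, 36 at equal depth, 144 with the length trend removed, 130 without 22Rv1, 428 without LTAD, 20 without the vehicle pair and 117 without the DHT pair. Intronic calls numbered 1107, against 189 with DESeq2, 732 with limma-voom, 375 with no pairing and 230 to 553 with a pair left out. The share of genes with a CLIP peak became 19.9% of higher and 19.6% of lower genes with 2 lists required, 20% and 21% for peaks at or above the median score, and 63.7% and 57.6% anywhere in the gene.

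Of 35 named genes called in LNCaP, 30 kept the call under every alternative run. Values near 0 changed sign. For PSF-RIP against input these were KLK3 at -0.0083 (LNCaP libraries alone), -0.0325 (equal depth) and -0.102 (without the DHT pair, against 0.062 without the vehicle pair), and FKBP5 at 0.16 (longest transcript). Between lines, SFPQ was at -0.0949 without 22Rv1, and NONO at -0.0044 without a filter, -0.0082 without 22Rv1, -0.0075 without LTAD and -0.0533 without the DHT pair (0.0731 without the vehicle pair). NEAT1 was at 0.18 (length) and 0.0985 (without 22Rv1), KLK3 at -0.25 without LTAD, and TMPRSS2 at -0.0027 (limma-voom), -0.00062 (no filter), -0.18 (without LTAD) and -0.0327 (without the vehicle pair). List medians turned for histones (0.10, length), snoRNA hosts (0.59, length; 0.083, without the DHT pair), the stress response (-0.02484, LNCaP libraries alone), sterol genes (0.0925, length; 0.0168, without the DHT pair) and p53 targets (0.103, without the DHT pair). Without the vehicle pair the medians of the snoRNA host, sterol and p53 lists kept their sign, at -0.504, -7.286e-05 and -0.0972 in that order. The cause was not tested. A fit with a pair left out assumes that the remaining pair varies like those of the other lines, and input depth limits genes with few reads.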
